A study of Mus musculus with 18 samples.

Results

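Forkhead (Fox) and Sox genes encode 2 families of DNA-binding transcription factors, and the chromatin state of all 63 of them was described in the accessible chromatin catalog of mouse bone marrow-derived macrophages (BMDMs). Members were protein-coding genes of GENCODE M21 whose symbol is Fox with a letter from a to s and a number, or Sox with a number. They comprised 44 Fox and 19 Sox genes, out of 21938 protein-coding genes. The rule selects genes by name and uses no measured value, although the families were picked with earlier results of these data known.

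Accessibility was assayed by ATAC-seq, in which the Tn5 transposase cuts exposed DNA and tags it for sequencing. BMDMs of wild type mice (male C57/BL6 animals in the study's methods) are macrophages grown out of bone marrow in culture. All cells had been exposed to the vehicle DMSO for 1 h and were either untreated or stimulated with LPS, a bacterial cell wall component, or with the cytokine IL-4, at 10 ng/mL, for 30 min or for 1, 2 or 4 h. The 18 libraries (9 groups of 2) entered a single catalog, deposited as 3 lists of positions: 82391 reference peaks, 59617 extended regions and 84660 summits. No list holds a value for a single library, so levels per library, depth, replicate error and changes upon LPS or IL-4 could not be derived, and no test was made. All values below are descriptions of the pooled catalog.

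Forkhead factors bind DNA through a winged helix domain, and Sox factors through an HMG box that bends the double helix. Many members of both families specify tissues during development, and several are known to open closed chromatin. Others act in most cell types: FoxO factors respond to insulin and growth factor signals through phosphorylation by AKT, FoxM1 drives genes of mitosis, and FoxK factors regulate metabolism. In myeloid cells, FoxO and FoxP1 are known regulators of differentiation and inflammatory genes, while no Sox factor belongs to the core macrophage factors, which include PU.1, C/EBP and AP-1.

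A gene was called open when a reference peak lay within 1000 bp of any of its annotated start sites, and closed otherwise. Of the 63 genes, 25 were open (39.7%, 95% Wilson interval 28.5 to 52%, which covers counting error only), whereas 56.5% of all protein-coding genes were open (12402 of 21938). By family, 22 of 44 Fox genes (50%, 35.8 to 64.2%) and 3 of 19 Sox genes (15.8%, 5.52 to 37.6%) were open, and these intervals overlapped. The 3 open Sox genes were Sox4, Sox12 and Sox13.

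CpG-rich start sites occurred in open and in closed genes, which is why sequences of both are shown. The first set consists of the 50 bp on each side of the best scored start site summit of the 3 Fox genes with the highest scores, of Foxo6 as a FoxO gene and of the 2 best scored Sox genes, in windows without an annotated untranslated region. Capitals mark CpG dinucleotides, and sequences run 5′ to 3′ on the strand of the gene (mm10).
Foxa3 chr7:19024245-19024345 (minus strand): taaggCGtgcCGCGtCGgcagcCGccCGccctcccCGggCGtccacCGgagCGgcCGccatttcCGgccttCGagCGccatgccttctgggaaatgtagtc
Foxn2 chr17:88440479-88440579 (plus strand): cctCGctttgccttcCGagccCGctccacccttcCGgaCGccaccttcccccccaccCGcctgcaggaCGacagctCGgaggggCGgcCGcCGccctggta
Foxk2 chr11:121259877-121259977 (plus strand): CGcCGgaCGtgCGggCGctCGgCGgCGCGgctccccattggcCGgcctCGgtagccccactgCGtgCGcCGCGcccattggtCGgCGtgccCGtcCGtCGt
Foxo6 chr4:120287914-120288014 (minus strand): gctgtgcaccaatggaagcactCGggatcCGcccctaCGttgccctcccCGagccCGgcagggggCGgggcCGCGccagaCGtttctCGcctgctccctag
Sox12 chr2:152398858-152398958 (minus strand): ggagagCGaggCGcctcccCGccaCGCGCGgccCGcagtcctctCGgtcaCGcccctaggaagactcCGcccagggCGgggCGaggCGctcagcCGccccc
Sox4 chr13:28953822-28953922 (minus strand): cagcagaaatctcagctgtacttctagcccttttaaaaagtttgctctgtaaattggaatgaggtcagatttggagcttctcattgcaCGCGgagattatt
None of these 6 windows overlaps an annotated gene; each lies before the start of the gene it is listed for. The windows of Foxa3, Foxn2, Foxk2, Foxo6 and Sox12 hold 10 to 20 CpG dinucleotides and have a GC content of 71.3% to 79.2%. The Sox4 window differs from them in composition, with 2 CpG dinucleotides and a GC content of 40.6%. Foxa3 is shown with a reservation, since this summit lies 82 bp from the start of the neighbouring gene Sympk and 757 bp from that of Foxa3.

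The second set gives the 100 bp just before the most upstream start site of closed genes, chosen after their values were seen, with CpG dinucleotides again in capitals. The windows come from the CpG-rich end, since such windows of closed genes held from 0 (Foxq1) to 18 (Sox2) CpG dinucleotides.
Sox2 chr3:34650305-34650404 (plus strand): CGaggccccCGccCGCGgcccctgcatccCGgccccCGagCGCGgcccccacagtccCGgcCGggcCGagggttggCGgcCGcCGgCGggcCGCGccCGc
Sox11 chr12:27342575-27342674 (minus strand): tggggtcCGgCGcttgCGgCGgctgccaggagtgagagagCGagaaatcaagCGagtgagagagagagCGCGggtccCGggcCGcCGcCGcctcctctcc
Foxd3 chr4:99656199-99656298 (plus strand): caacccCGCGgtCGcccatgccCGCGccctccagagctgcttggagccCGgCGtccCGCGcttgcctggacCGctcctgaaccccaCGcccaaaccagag
The Sox2 window, inside an intron of the noncoding gene Sox2ot, holds 18 CpG dinucleotides at a GC content of 89%, which is above every value of the first set except for the 20 CpG dinucleotides of Foxk2. The intergenic windows of Sox11 and Foxd3 hold 12 and 11 CpG dinucleotides. Yet the nearest reference peak lay 568955 bp from the Sox2 start site, 828318 bp from that of Sox11 and 59100 bp from that of Foxd3.

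The subfamilies, named by the letter of the gene symbol for Fox genes and by the usual group letter for Sox genes, had open, closed or both kinds of members. Of 19 Fox subfamilies, 6 were open in every member (FoxH, FoxJ, FoxK, FoxM, FoxO and FoxS), 7 had no open member (among them FoxE, FoxF, FoxI, FoxL, FoxQ and FoxR), and 6 had both kinds (FoxA, FoxB, FoxC, FoxD, FoxN and FoxP). Groups with a single member, among them FoxH, FoxM, FoxQ, FoxS, SoxG and SoxH, are of 1 kind by construction. Of 8 Sox groups, 6 were closed throughout, and the open genes belonged to SoxC (Sox4 and Sox12) and SoxD (Sox13).

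**Figure D1:**
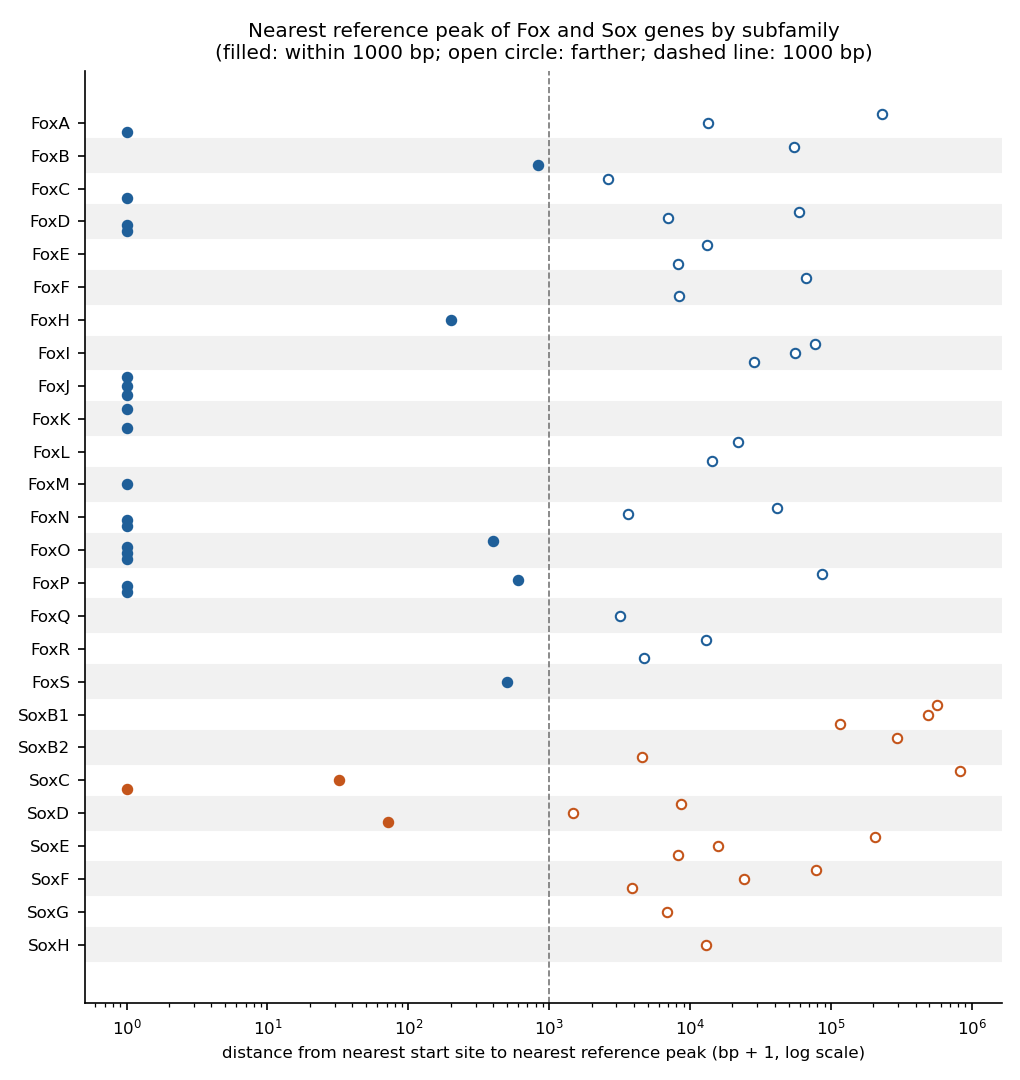
Distance from a start site to the nearest reference peak for 62 of the genes (horizontal axis, bp + 1, log scale), with 1 row per subfamily, Fox genes in blue and Sox genes in orange. Filled points are the 25 open genes, and the open circles beyond the dashed line at 1000 bp are 37 closed genes, whose distances run from 1483 bp for Sox6 to 828318 bp for Sox11.

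The 1000 bp limit fell into a sparse stretch of distances. Just inside it lay Foxp3, with its peak edge 603 bp from a start site, and Foxb2 with 828 bp. Just outside it lay Sox6 with 1483 bp and Foxc2 with 2595 bp. Among the 25 open genes, 18 had a peak over a start site itself, and for the other 7 (Foxb2, Foxh1, Foxo6, Foxp3, Foxs1, Sox12 and Sox13) the peak edge lay 31 to 828 bp away. The best summit lay within 200 bp of an own start site in 17 genes and on its upstream side in 22.

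The height of the start site summits was then compared between open genes. The summit score is a value given by the authors to each summit, with a median of 737 over the list and a scale that is not stated, and was used here as a rank. The best start site score of open Fox and Sox genes had a median of 1248 and ran from 290 to 1877. Open protein-coding genes had a median of 1456 and an interquartile range of 1071 to 1799. Of the 25 genes, 18 were below this median and 11 below percentile 25 of open coding genes. Only Foxa3 (percentile 80.5) and Foxn2 (77.8) stood above the interquartile range.

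**Figure D2:**
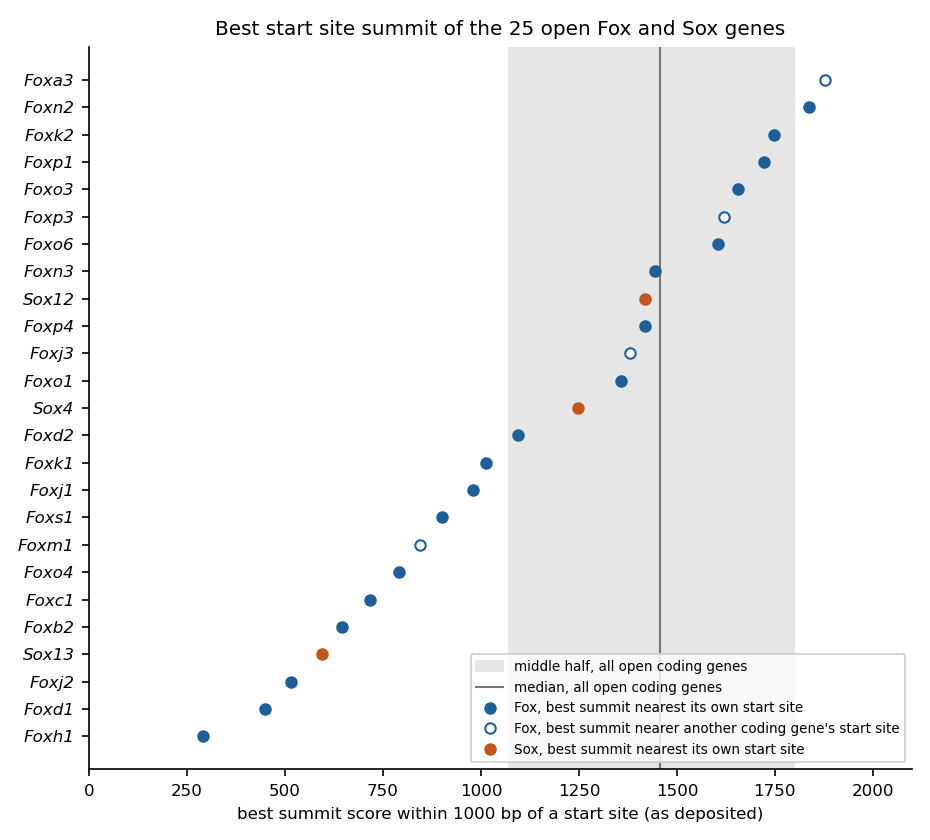
Best summit score within 1000 bp of a start site (horizontal axis, as deposited, linear scale from 0) for each of the 25 open genes, sorted by score, with Fox genes in blue and Sox genes in orange. The line and the shaded band are the median (1456) and the interquartile range (1071 to 1799) of all open protein-coding genes, and hollow points are the 4 genes (Foxa3, Foxj3, Foxm1 and Foxp3) whose best summit lay nearer the start of another coding gene.

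The FoxO genes, which encode the forkhead factors restrained by insulin and AKT signalling, were open in 4 of 4 cases. Foxo3 had the highest score of them, 1657, with a summit 15 bp before a start site in a peak of 309 bp (chr10:42276627-42276935), and 7 extended regions within 50 kb of its most upstream start site. A further Foxo3 peak 795 bp upstream (chr10:42277550-42278142) had a summit of 2140, which was left out of the best score because the summit itself is more than 1000 bp from a start site. Foxo6 scored 1606, with 2 regions and a peak 400 bp before its single start site. Foxo1 scored 1357, its summit lay 4 bp inside the first exon, and 6 regions were within 50 kb. Foxo4, on the X chromosome, had the lowest score of the subfamily, 791, with 5 regions, of which 0 were distal, meaning more than 1000 bp from every annotated start site.

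A list of genes known to act on FoxO proteins was chosen, like the other gene lists here, with earlier results of these data known. It held 26 genes (kinases, phosphatases, receptors and adaptors of the insulin and PI3K pathway, 14-3-3 proteins and modifiers such as Sirt1). Of these, 26 of 26 had a start site peak (all coding genes 56.5%), with a median best score of 1594. Of 20 genes known as FoxO targets in various tissues, 15 were open, among them the cell cycle inhibitors Cdkn1a and Cdkn1b, the pro-apoptotic gene Bcl2l11 and the antioxidant genes Sod2 and Cat. Among the 5 closed ones were the gluconeogenic genes G6pc and Pck1, the metabolic kinase gene Pdk4, and Fasl, a gene of lymphocytes.

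The FoxP genes encode factors with roles in blood, brain and regulatory T cells, and 3 of 4 were open. Foxp1 scored 1721 at its best start site summit, and 15 of its 22 annotated start sites had a peak. The CpG-rich first group of start sites (4 sites within 1.7 kb) had 5 peaks and a best score of 856, whereas the best summit lay at a group of 2 internal sites 86.3 to 87.4 kb downstream, where CpG observed over expected had a median of 0.34. Foxp4 scored 1418, with 4 start site peaks and 4 extended regions. Foxp2, a gene studied for its role in speech, had no peak at any of 16 start sites, 0 peaks inside its 540629 bp, and its nearest peak 86822 bp away.

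Foxp3, the gene of the lineage factor of regulatory T cells, was open by the rule with a score of 1619, although 6 of its 7 start sites had no peak. The peak (chrX:7574247-7574504) lay in a Foxp3 intron, with its edge 603 bp and its summit 759 bp downstream of the most upstream start site. The same summit was 120 bp from a start site of the coding gene Ppp1r3f and 89 bp from one of Flicr, an antisense RNA gene. To which of these genes the peak belongs cannot be told apart from positions.

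Such sharing concerned a few other genes. In 4 of the 25 open genes the best summit was nearer the start of another coding gene than to an own start site. Besides Foxa3 (Sympk) and Foxp3 (Ppp1r3f), these were Foxm1, with the summit 21 bp from Rhno1 and 78 bp from its own start, and Foxj3, with 30 bp to Frg2f1 and 102 bp to its own. All start site peaks lay within 1000 bp of another coding gene's start in 3 genes, Foxa3, Foxm1 and Foxp3, which is 12% of open Fox and Sox genes. The corresponding share over all open coding genes was 17.6% (2182 of 12402). With noncoding genes counted as well, 5 Fox and Sox genes were concerned, the others being Foxd2 (Foxd2os, 187 bp from the summit) and Foxj2 (Gm26826, 717 bp).

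FoxM1 activates genes of the G2 and M phases, and the best start site summit of Foxm1 lay nearer the start of Rhno1, as just given. Foxm1 had a best score of 845, with 7 extended regions within 50 kb. In a list of 10 genes of mitosis and proliferation that FoxM1 is known to regulate or accompany, 10 of 10 were open (all coding genes 56.5%, median best score 1461.5), including Plk1, Ccnb1, Aurkb and Cenpf.

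FoxK, FoxJ and FoxN genes were open in all cases but Foxn1 and Foxn4. Foxk2 scored 1747 and Foxk1 1013, both genes coding for factors that bind metabolic and autophagy genes. Their surroundings had the reverse order, with 4 regions near Foxk2 and 10 near Foxk1, of which 9 were distal. Foxn2 had the highest score of a summit that was nearest its own start site, 1838, with 3 start site peaks and 8 regions. Foxn3, coding for a checkpoint repressor, scored 1443 with 5 regions. Foxn1, the factor of thymus epithelium and hair follicles, and Foxn4, of retina and spinal cord, were closed.

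Foxj1, the master gene of motile cilia, was open with a score of 979, a summit 59 bp before its start site and 8 regions. Foxj3 scored 1381 with 4 regions. Foxj2 scored 515, at percentile 3.62 of open coding genes, and had 14 extended regions within 50 kb, the most among the open genes.

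The other open Fox genes, most of them known as developmental regulators, scored below the median of open coding genes except for Foxa3. Foxd2 scored 1094 with 4 regions, Foxd1 448 with 2, Foxc1, a gene of mesenchyme and vessels, 716 with 2, and Foxb2 644 with 2. Foxs1 scored 900 with 7 regions, and its peak lay 504 bp before the start. Foxh1, a partner of SMAD proteins in nodal signalling, had the lowest score, 290, with 10 regions and 9 coding genes within 50 kb. Foxa3, a liver-enriched factor, had a peak of its own over its start site, with a score of 411, beside the summit of 1877 at Sympk. It had 7 regions.

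Of the Sox genes, Sox12 had the best score, 1418, with 2 start site peaks and 6 extended regions. Its best summit lay 845 bp before the nearest start site, and the peak closest to that site (31 bp) scored 583. Sox4, a gene active in many progenitor and immune cells, scored 1248 with its peak over the single start site (chr13:28953627-28954054) and 2 regions. The third SoxC gene, Sox11, was closed. Sox13 was open only at 2 internal start sites, 37.94 and 38.85 kb downstream of the first, where a peak (chr1:133385597-133385806) scored 593 in an intron. The CpG-rich most upstream start site of Sox13, with a CpG observed over expected of 0.75, had no peak, and neither had any start site of its protein-coding transcripts.

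The closed Sox genes include factors of pluripotent and neural stem cells (Sox1, Sox2 and Sox3), of cartilage and gonads (Sox9), of neural crest and myelinating glia (Sox10) and of endothelium (Sox7, Sox17 and Sox18). The lists of related genes are read against the 56.5% of all coding genes that were open. Of 18 other genes with an HMG box, 15 were open with a median best score of 1955, and Tox, Tox3 and Sry were closed. Of 10 genes of the TCF, LEF and beta-catenin group, whose DNA-binding members carry an HMG box too, 7 were open and Tcf7, Lef1 and Axin2 closed.

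Closed genes ranged from those embedded in accessible chromatin to those far from any peak. A first group of 11 had a peak within 5000 bp of a start site or at least 5 extended regions within 50 kb. Sox15 had 14 regions, as many as any Fox or Sox gene, with 11 coding genes in the same window and its nearest peak, 6877 bp away, over a start site of Mpdu1. Foxr1 had 9 regions, with a peak (score 1431) 4705 bp from its start in an exon that is annotated as untranslated. Sox18 had 7 regions and a peak of 1200 placed 3867 bp upstream of its start. Foxn1 had 7 regions and 4 peaks inside the gene, of which the nearest, with a score of 834, lay in an intron 3621 bp downstream of the start.

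Neighbouring Fox genes shared part of these windows. Foxf1, Foxc2 and Foxl1 lie side by side on chromosome 8, and the peak nearest Foxc2 (2595 bp upstream, score 1308) was also the nearest to Foxl1, at 14364 bp. Foxc2 and Foxl1 had 4 and 7 regions. Foxe3 had 6 regions and a peak of 1164 at 8220 bp, on the side away from the open gene Foxd2, whose window overlaps its own. In all, 8 of the 221 distinct regions near Fox and Sox genes were counted for more than 1 of them. Foxe1 had 5 regions with the nearest peak at 13222 bp. Foxq1 had 2 regions and a peak of 448 located 3159 bp from its start, at a start site of A530084C06Rik. Sox21 had 1 region, 4522 bp upstream. Sox6 had 1 region as well, and its nearest peak, 1483 bp away with a score of 623, was 567 bp from a start of 1110004F10Rik.

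A second group of 15 closed genes had 0 extended regions within 50 kb. Among them were Foxa2, Foxb1, Foxd3, Foxf2, Foxi2, Foxi3, Foxp2, Sox1, Sox2, Sox3, Sox9, Sox11, Sox14 and Sox17. They make up 23.8% of the 63 genes, against 21.1% of all coding genes with no region in that window. Their nearest peak lay at least 54750 bp away, with a median of 115485 bp, and 8 closed genes had no peak within 100 kb (among them Foxa2, Sox1, Sox2, Sox3, Sox9, Sox11 and Sox14). In 13 of the 15 no other coding gene started within 50 kb, and 12 of the 15 were CpG island-like, as defined next. The remaining 12 closed genes (Foxa1, Foxd4, Foxf1, Foxi1, Foxl2, Foxn4, Foxr2, Sox5, Sox7, Sox8, Sox10 and Sox30) had 1 to 4 regions and a nearest peak at 7004 to 41317 bp.

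Medians of CpG content were closer between open and closed Fox and Sox genes than between open and closed coding genes. CpG-rich start sites are, as background, those that are unmethylated and often accessible in most cell types, and in developmental genes they are known to carry Polycomb marks when silent. CpG observed over expected within 500 bp of the start site (that of the best summit in open genes, the most upstream one in closed genes) had a median of 0.80 in open Fox and Sox genes (range 0.27 to 1.17) and of 0.73 in closed ones (0.13 to 0.99). In a 250 bp window the medians were 0.865 and 0.702, a difference of 0.163 in place of 0.0733. In all coding genes the medians at 500 bp were 0.73 for open and 0.23 for closed genes. GC content had medians of 65.5% and 62.2% in open and closed Fox and Sox genes, and of 58.9% and 48.1% in open and closed coding genes.

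With a start site called CpG island-like when its ratio was above 0.6 and its GC content above 50% at the most upstream start, 47 of the 63 genes were CpG island-like. Of these 47, 21 were open (44.7%, 31.4 to 58.8%), against 85.1% of CpG island-like coding genes (8293 of 9740). The count was 18 of 31 for Fox and 3 of 16 for Sox genes. A peak at any start site counts here. In Sox13 the CpG island-like start had no peak, and the peak lay at internal start sites with ratios of 0.27 and 0.30. In other words, 26 of 38 closed Fox and Sox genes (68.4%) had a CpG island-like most upstream start, compared with 15.2% of all closed coding genes (1447 of 9536). Without a CpG island-like most upstream start, 4 of 16 Fox and Sox genes were open (Foxa3, Foxh1, Foxj3 and Foxs1), against 33.7% of coding genes. Of these, Foxj3 had CpG-rich start sites farther downstream, with a ratio of 0.96 at that of its best summit. With any start site counted, 3 of 11 Fox and Sox genes without a CpG island-like start were open, against 2950 of 10703 coding genes. Whether the closed CpG-rich starts carry Polycomb marks was not analysed here.

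**Figure D3:**
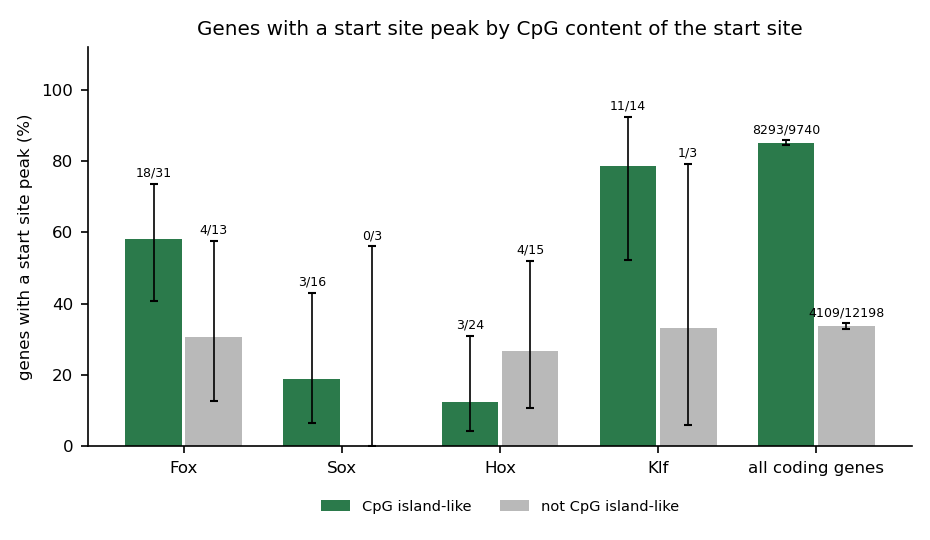
Share of genes with a peak at any start site (vertical axis, percent), in 4 gene families and all coding genes. Green and grey bars are genes with a CpG island-like and another most upstream start site. Error bars are 95% Wilson intervals and the numbers above them are open genes over all genes of the bar, and among CpG island-like genes the share is 18 of 31 for Fox, 3 of 16 for Sox, 3 of 24 for Hox and 11 of 14 for Klf genes, against 8293 of 9740.

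A pair of other factor families was set beside these genes. Hox genes, which are developmental regulators in compact clusters, were open in 7 of 39 cases (17.9%), and Klf genes, zinc finger factors with several known roles in macrophages, in 12 of 17 (70.6%). Open Hox genes had a median best score of 1036 and open Klf genes of 1903. The share of open genes thus stood at 15.8% for Sox, 17.9% for Hox, 50% for Fox and 70.6% for Klf genes, and the intervals of neighbours in this order overlapped except for Hox and Fox genes (8.98 to 32.7% and 35.8 to 64.2%). This separation was seen at 1000 bp only. The Hox and Fox intervals did overlap at 500 bp (15.4% of Hox and 43.2% of Fox genes open) and at 2500 bp (23.1% and 50%).

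The surroundings of open and closed genes were compared by the number of extended regions, which, as read from the positions, are reference peaks widened by a fixed flank and merged where they overlapped. Open Fox and Sox genes had a median of 5 regions within 50 kb (range 2 to 14) and closed ones a median of 1 (range 0 to 14). An open gene's own start site region is part of its count, so that the 2 medians are not independent of the call. With distal regions alone the medians were 3 and 1. Open and closed coding genes had medians of 7 and 1 regions, or 4 and 0 distal ones. A total of 13 of 25 open Fox and Sox genes had at least 5 regions, compared with 70.8% of open coding genes. Across the 63 genes, the number of regions went with the number of other coding genes starting within 50 kb (Spearman's rho 0.55, and 0.34 over the 21938 coding genes, a description across genes, which are not independent replicates), and no such neighbour was present for 48% of open and 39.5% of closed Fox and Sox genes, against 23.6% of open and 31.7% of closed coding genes.

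**Figure D4:**
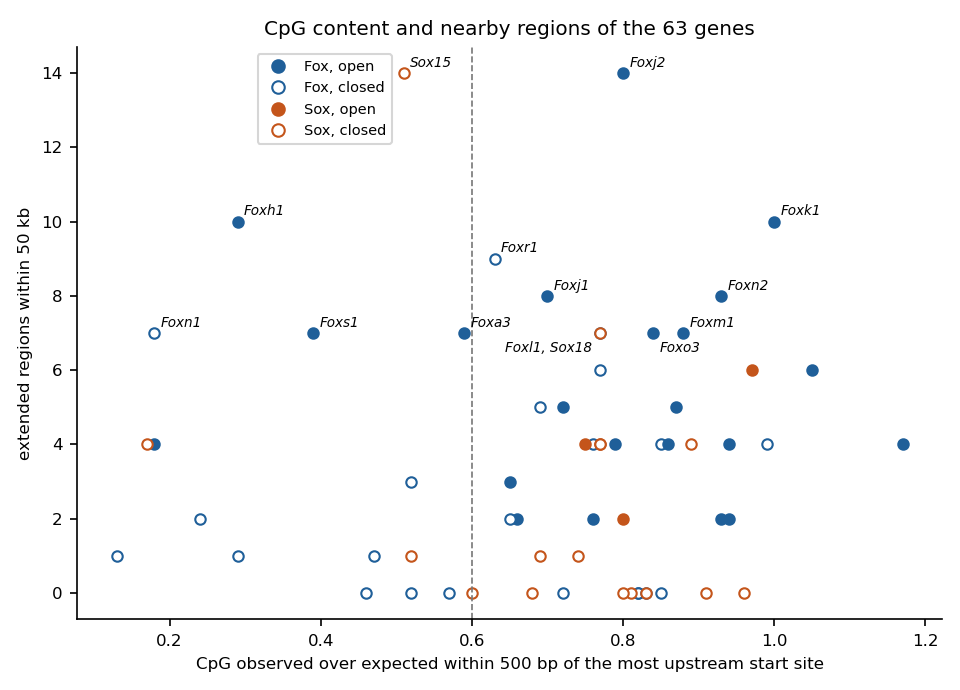
CpG observed over expected at the most upstream start site (horizontal axis, ratio) against the number of extended regions within 50 kb (vertical axis, count) for the 63 genes, with Fox in blue and Sox in orange, filled points for open and hollow points for closed genes, and names for those with at least 7 regions. Of the 15 closed genes with 0 regions on the lowest line, 12 are CpG island-like and lie at or right of the dashed line at 0.6, and open genes have 2 to 14 regions.

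Exon number was another property that the rule did not use. Fox and Sox genes with 1 to 3 exons were open in 13 of 41 cases (31.7%), and those with more exons in 12 of 22 (54.5%). The shares over all coding genes were 28.3% and 65%. Genes with a single exon were 6 of 25 open and 13 of 38 closed Fox and Sox genes, whereas they made up 2.44% of open and 10.7% of closed coding genes.

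Among the long genes of both families, Foxp1 and Foxn3 held the most peaks inside the gene body. Of the 5 genes of at least 100 kb, Foxp1 held 68 reference peaks over 597384 bp, or 11.4 per 100 kb. By the number of peaks, Foxp1 ranked 7 of 21938 coding genes. Foxn3 held 31 peaks over 373505 bp, or 8.3 per 100 kb. Over 2492 coding genes of at least 100 kb the median was 2.54 per 100 kb, and Foxp1 and Foxn3 stood at percentiles 89.8 and 81.9.

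In Foxp1, 64 of the 68 best summits lay in introns and 56 lay more than 1000 bp from any of its start sites. The scores of all 68 ran from 127 to 1721 with a median of 623. In Foxn3, 30 of 31 were intronic and 28 were away from its start sites. The start sites of Foxn3 with a peak fell into 2 groups, 4 sites at the upstream end with a best score of 823 and 2 sites about 170 kb downstream with 1443. The other 8 annotated start sites of Foxn3 had no peak.

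Sox5, of the SoxD group with roles in cartilage and neurons, was closed at all 12 start sites, but 14 peaks lay in its introns, with scores of 175 to 1345 and a median of 829. This is 1.47 peaks per 100 kb over 953553 bp, at percentile 40.9 of long coding genes, and the median of the 1024 closed long genes was 0. Sox6 held 1 peak, with a score of 324, and Foxp2 held 0. Shorter open genes had intronic peaks too. In Foxk1, 8 of 10 peaks were intronic, and the best score in the gene was 1982, above the 1013 of its start site. In Foxo3, 10 of 11 peaks were intronic, and in Foxn2 7 of 9.

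**Figure D5:**
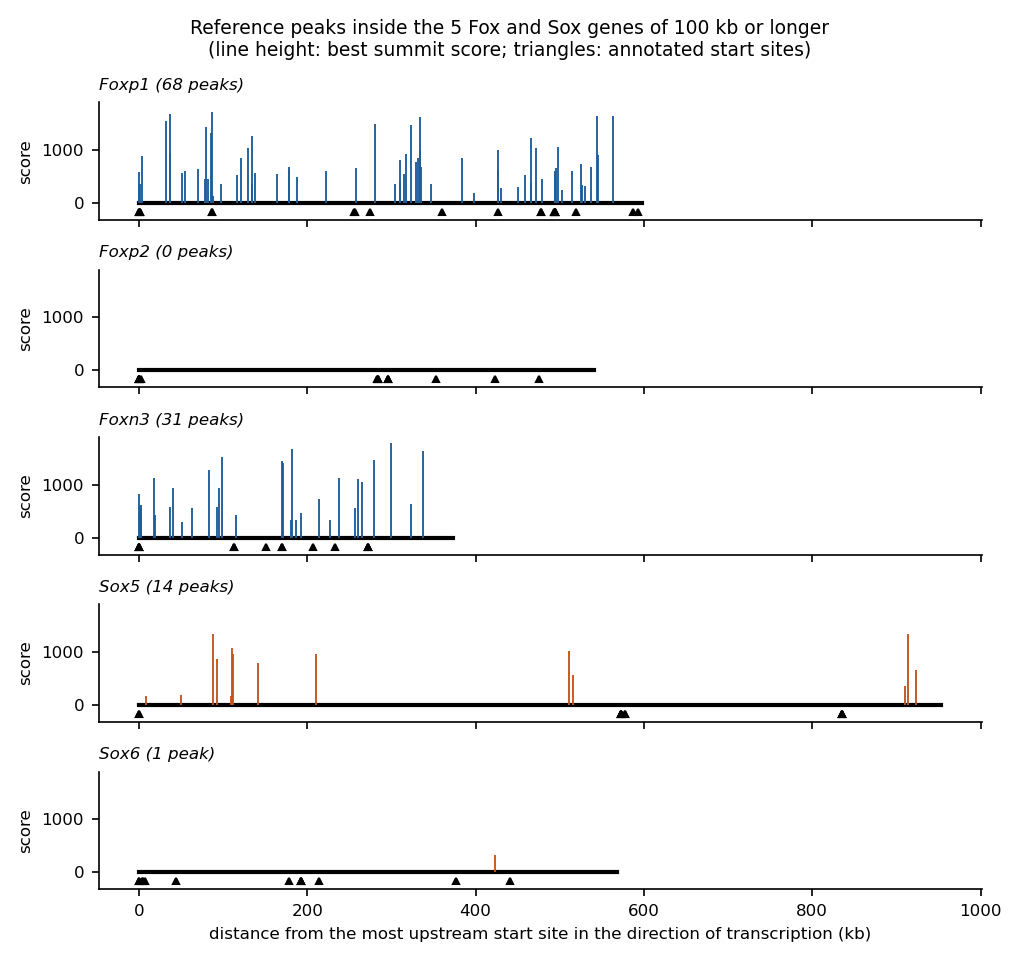
Reference peaks inside Foxp1, Foxp2, Foxn3, Sox5 and Sox6, drawn as lines at their distance from the most upstream start site (horizontal axis, kb in the direction of transcription) with the best summit score as height (vertical axis, as deposited). The black bar is the gene and triangles are annotated start sites, and the 68 peaks of Foxp1 and 31 of Foxn3 contrast with 14 in Sox5, 1 in Sox6 and 0 in Foxp2.

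Recognition sequences were searched within 100 bp of the best summit of the 221 distinct regions within 50 kb of a Fox or Sox gene, of which 128 were distal. The motifs were TGTTTAC for forkhead factors, CATTGTT for Sox factors, GAGGAAGT for PU.1, TGACTCA for AP-1, TGTGGTT for RUNX, CCGGAAGT for ETS factors, GGGGCGGGG for the GC box and TGACGTCA for the CRE, on both strands. PU.1 and ETS motifs share their last 6 letters. A match is a description of the sequence and not a bound site. Each share near Fox and Sox genes was set beside that over all 59617 extended regions.

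The families' own motifs had shares whose intervals covered those of all regions at 100 bp, which did not hold for the Sox motif at 200 bp (2.26%, 0.97 to 5.19%, against 5.43%). The forkhead motif was present at 5 of 221 summits (2.26%, against 2.17% of all regions) and the Sox motif at 2 (0.905%, 0.249 to 3.24%, against 2.59%). AP-1 was present at 13.1% (all regions 17.3%), PU.1 at 8.14% (10.1%) and RUNX at 5.88% (8.3%). The CRE motif was present at 2 of 221 (0.905%, against 1.06%), both distal (1.56% of distal summits, against 0.503%). The GC box was present at 8.6% (5.57 to 13%, against 4.57%) and ETS at 4.52% (2.48 to 8.13%, against 1.8%), and neither interval covered the share of all regions. The set near Fox and Sox genes holds more start sites, 93 of 221, than all regions do (14916 of 59617). Among these promoter summits alone the GC box share was 18.3% (11.7 to 27.3%, against 15.3% of all promoter summits), and the ETS share was 8.6% (4.42 to 16.1%, against 5.64%). Among distal summits alone the AP-1 share was 19.5% (all distal 20.5%), PU.1 8.59% (11.6%) and forkhead 2.34% (2.37%). ETS and the GC box were each found at 2 of 128 distal summits (1.56%, 0.43 to 5.52%), against 0.515% and 0.984% of all distal summits.

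Distal summits near Fox and Sox genes with a match are printed here, since they carry the letters counted above. They are narrower than the windows counted above. They comprise the 2 windows with a forkhead match within 50 bp of the summit, and the highest scored Sox window, AP-1 windows (2) and PU.1 window, without an untranslated region, with 50 bp on each side of the summit on the plus strand, and capitals mark the motif on either strand.
Foxq1 upstream chr13:31506932-31507032 (plus strand): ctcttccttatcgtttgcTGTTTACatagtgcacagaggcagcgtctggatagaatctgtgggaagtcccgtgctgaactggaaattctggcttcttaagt
Foxp4 upstream chr17:47943222-47943322 (plus strand): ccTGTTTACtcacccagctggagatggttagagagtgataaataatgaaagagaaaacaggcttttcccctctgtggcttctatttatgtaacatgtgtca
Foxm1 downstream chr6:128381362-128381462 (plus strand): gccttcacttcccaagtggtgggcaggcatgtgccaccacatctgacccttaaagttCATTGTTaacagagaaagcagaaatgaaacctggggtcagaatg
Foxn2 gene body chr17:88462833-88462933 (plus strand): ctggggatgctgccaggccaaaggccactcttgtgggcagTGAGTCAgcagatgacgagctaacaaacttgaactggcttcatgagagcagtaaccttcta
Foxb2 upstream chr19:16898688-16898788 (plus strand): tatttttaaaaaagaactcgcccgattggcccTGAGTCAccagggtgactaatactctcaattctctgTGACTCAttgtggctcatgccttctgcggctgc
Foxl1 downstream chr8:121176383-121176483 (plus strand): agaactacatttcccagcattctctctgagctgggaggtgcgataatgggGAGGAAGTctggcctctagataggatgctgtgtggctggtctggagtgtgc
The forkhead match in the Foxq1 window lies at -49.2 kb from the gene's start (summit score 759), and that near Foxp4 at -18.6 kb (score 486), both intergenic. The other distal forkhead summit counted above, near Foxp1 (score 889), has its match more than 50 bp from the summit and is not printed. The Sox match is 18.4 kb downstream of the Foxm1 start, in an intron of Tex52 and of Gm44596 (score 1381). The AP-1 match in Foxn2 is 22.2 kb inside the gene, in an exon outside its annotated untranslated regions (score 1644). The window upstream of Foxb2, at -24.9 kb in an intron of the noncoding gene AC128703.1, holds 2 AP-1 matches in opposite orientation (score 1394). The PU.1 match is 48.5 kb downstream of the Foxl1 start in an intron of Gm20388 (score 1153).

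At the start sites themselves, the same motifs were counted at the best summits of the 25 open genes. The GC box was found in 7 (Foxa3, Foxc1, Foxj1, Foxk1, Foxo1, Foxo3 and Foxo6), against 19.2% of 12321 open coding genes with a scored summit. The forkhead motif was found in 1, Foxo4 (1.3% of open coding genes). The Sox, PU.1, AP-1, RUNX, ETS and CRE motifs were found in 0 of 25, with shares over open coding genes of 0.958%, 3.88%, 4.54%, 2.79%, 7.61% and 3.43%, respectively.

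The labelled cell type was checked by start site peaks of marker genes. All 10 macrophage markers were open (among them Adgre1, Csf1r, Itgam and Spi1), against 56.5% of all coding genes. Of 49 markers from 8 lists of other cell types, 17 were open. These lists ranged from 0 of 6 for epithelial genes to 4 of 6 (66.7%) for endothelial genes, the latter above the share of all coding genes. A start site peak is not evidence of transcription, and whether the Fox and Sox genes were transcribed in these cells was not analysed here.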

How the data were processed

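ATAC-seq of mouse BMDMs was deposited by the authors as 3 lists. The methods name BBDuk, Trimmomatic, ShortStack (mapping to mm10), SAMtools and MACS2; the submitters' processing notes give Trimmomatic 0.39, SAMtools 1.9 and MACS2 2.2.6. Duplicate reads were kept, which can raise summits by PCR copies, and no shift for Tn5 is named, which can displace a summit. Peak and extended region lists, as deposited, hold positions only. The summit list holds a score per summit, deposited by the authors without a scale; it was used for ranks and medians. None of them separates the libraries, and the number of columns from samples outside the series was 0. Thus depth and precision per library are unknown, and groups could not be compared.

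Positions (counted from 1) were joined with GENCODE M21 and the GRCm38.p6 sequence, which has the coordinates of mm10, with Python 3.11.15 (pandas 2.3.3, numpy 2.4.6, scipy 1.17.1, matplotlib 3.10.9) in scripts that were tested on simulated intervals. A gene was open with a peak within 1000 bp of any start site. Its best score is the highest summit within the same distance. Extended regions were counted within 50 kb of the most upstream start site. The most upstream start site was also used for CpG classes, and motifs were searched within 100 bp of summits. Symbols matching Hox with a letter a to d, or Klf, and a number gave the comparison families.

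The members, gene lists and motifs were chosen with earlier results of these data known. All open genes are named, closed genes with a peak within 5000 bp or at least 5 regions are given with values, and of listed genes minorities of up to 5 are named. Counts cover all genes, and 2 single genes are not reported here. The alternatives were windows of 500 and 2500 bp, other start sites, summits at or above the median score, members with unshared peaks, regions within 20 or 100 kb, around the gene body, distal or as summits, CpG windows of 250 and 1000 bp, and motif windows of 50 and 200 bp. A further 2 alternatives, island-like calls from any start site and sharing with coding genes only, were chosen after seeing the data.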

Additional observations from a re-analysis of the deposited data

How the results depend on the processing

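The share of open Fox and Sox genes stayed within its counting interval under the 7 alternatives run, between 30.2% (summits at or above the median score) and 41.3% (2500 bp), as did, under the 5 run for them, the separate shares of Fox (38.6% to 50%) and Sox genes (10.5% to 21.1%), and further those of Hox and Klf genes at 500 and 2500 bp, and that of CpG island-like Fox and Sox genes (40.9% to 44.7%). The share of all coding genes moved too, from 56.5% to 50.3% with summits at or above the median score, 52.1% with the most upstream start site, 55% with coding transcripts, 54.9% at 500 bp and 59.9% at 2500 bp. With any start site allowed to be island-like, an alternative chosen after seeing the data, 42.3% of 52 such Fox and Sox genes and 84.1% of 11235 such coding genes were open. The median best score ran from 1013 (500 bp) to 1302.5 (2500 bp). The difference between the medians of open and closed genes, 4 regions within 50 kb, kept its sign and was 2 with distal regions only. That of the CpG ratio, 0.0733, was 0.163 in a 250 bp window. Within 50 bp of summits, the shares were 4.98% for PU.1 (all regions 7.17%), 9.05% for AP-1 (12.7%) and 4.98% for the GC box (2.71%), which reached 13.6% within 200 bp (6.32%). At 200 bp the intervals of the Sox motif (2.26%, against 5.43%) and of RUNX (7.69%, against 12.5%) no longer covered the share of all regions. At distal summits only, AP-1 was at 19.5% (all distal 20.5%), ETS at 1.56% (0.515%) and the GC box at 1.56% (0.984%). The cause of these shifts was not tested. No paired analysis was possible because the lists hold no value per library, and for the same reason no replicate could be left out. Depth per library is unknown, so that a closed start site may be one with a peak below the authors' limit.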
